A study of Mus musculus with 25 samples.

Results

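The genes of the major histocompatibility complex (MHC), of antigen presentation and of the interferon response were taken by gene symbol: every symbol that begins with H2-, the interferon regulatory factors (Irf), the Stat genes, the Ifi, Ifit and Ifitm, Oas and Gbp families, and B2m, Tap1, Tap2, Tapbp, Psmb8, Psmb9, Psmb10, Cd74, Ciita and Nlrc5. They are 106 of the 24439 genes in the RNA-seq tables, under 104 symbols, since Psmb9 and Ciita each have 2 identifiers. The same rule on the nearest gene of each ATAC-seq peak gave 132 of 65053 peaks. The study compared open chromatin (ATAC-seq, which reads where a transposase can cut) and expression (RNA-seq) between the mouse cell lines αTC1 (alpha TC1 clone 6) and βTC6 (beta-TC-6). Both are tumour-derived pancreatic lines that carry the SV40 T antigen as a transgene, under a glucagon gene promoter in αTC1 and an insulin gene promoter in βTC6, and αTC1 clone 6 is a single clone. Neither line was treated, and they were grown in media that differed in serum and supplements, so line and medium cannot be told apart. ATAC-seq covered 5 αTC1 and 5 βTC6 libraries and 9 mixtures of counted cells with 10% to 90% αTC1, 1 library each, and RNA-seq covered 3 libraries of each line.

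MHC class I molecules are made of a polymorphic heavy chain (H2-K1 and H2-D1 among the classical ones), beta-2 microglobulin (B2m) and a short peptide. The peptide is cut by the proteasome, carried into the endoplasmic reticulum by the Tap1/Tap2 transporter and loaded with the help of tapasin (Tapbp), and the complex is shown to cytotoxic T cells. Class II molecules present peptides from outside the cell and belong to professional antigen-presenting cells. Interferons signal through Jak kinases to Stat proteins and Irf9, which bind the interferon-stimulated response element (ISRE) and the gamma-activated site (GAS) upstream of many of the genes described here. In islets, class I on beta cells is known from type 1 diabetes, in which T cells attack them.

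The libraries held 21954031 to 26033482 expected RNA-seq counts and 4397851 to 10374903 ATAC-seq reads in peaks. Glucagon (Gcg) stood at 12113 to 14406 FPKM (fragments per kilobase of transcript, scaled to depth) in αTC1 and at 172 to 267 in βTC6, and Ins2 stood at 0.19 to 0.64 in αTC1 and at 23541 to 35748 in βTC6. Of 10 immune cell markers, 9 stayed under 1 FPKM in every library. The sum over all 10 was 1.80 to 2.34 in αTC1 and 2.27 to 2.47 in βTC6. The exception was Cd68, at 0.92 to 1.2 FPKM in αTC1 and at 2.02 to 2.18 in βTC6, where it made up most of the sum. The pan-leukocyte gene Ptprc was at 0 in αTC1 and at 0.01 to 0.02 in βTC6. Summed fibroblast markers (5 genes) were 2.42 to 3.5 FPKM in αTC1 and 0.38 to 0.56 in βTC6, with Col3a1 at 0 in all libraries, and 4 endothelial markers summed to at most 0.31. The part of these low levels in the results was not tested. Libraries of one line differed beyond sampling noise. In RNA-seq the chi-square per degree of freedom was 2.11 between αTC1 replicates 1 and 2, 30.6 and 32.4 between these and αTC1 replicate 3, and 19.1 to 43.4 among the βTC6 libraries. In ATAC-seq it was 2.05 to 2.16 among αTC1 replicates 1 to 3 and 10.12 to 11.4 between these and replicates 4 and 5, and in βTC6 the same values were 2.25 to 2.55 and 4.48 to 8.28. In RNA from a bulk of cells, fewer expressing cells and less RNA per cell cannot be told apart.

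More of the tested genes were higher in βTC6 than in αTC1, among them the classical class I heavy chains, tapasin, Irf7, Irf9 and Ifi30. Of the 106 genes, 43 reached 1 FPKM in all libraries of either line and were tested (36 in both lines, 3 through αTC1 only and 4 through βTC6 only). Genes that entered through the line in which they are high had to differ, and the counts below hold for the tested genes alone. At a false discovery rate (FDR) under 5%, 21 were higher in βTC6 and 7 were lower, where 38.7% of all 12195 tested genes were higher and 36.0% lower. With an absolute log2 fold change over 2 as well, which is what "called" means here, 6 were higher in βTC6 and 3 lower, against 10.2% and 4.08% of all tested genes. Many of these calls are on genes that entered through the line in which they are high. Of those described below, H2-M10.1 and Oasl1 entered through βTC6 only, and H2-Q1 and Psmb9 through αTC1 only. The median log2 fold change (βTC6 over αTC1) was 0.58 over the 43 genes and 0.01 over all tested genes. The FPKM of the lines did not overlap for 30 of the 43 (22 higher in βTC6, 8 lower), and for 77.7% of all tested genes. With scaling to the ERCC spike-in RNAs in place of TMM, 13 genes passed the FDR as higher and 3 as lower, where 17.5% and 11.8% of all tested genes did.

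**Figure D1:**
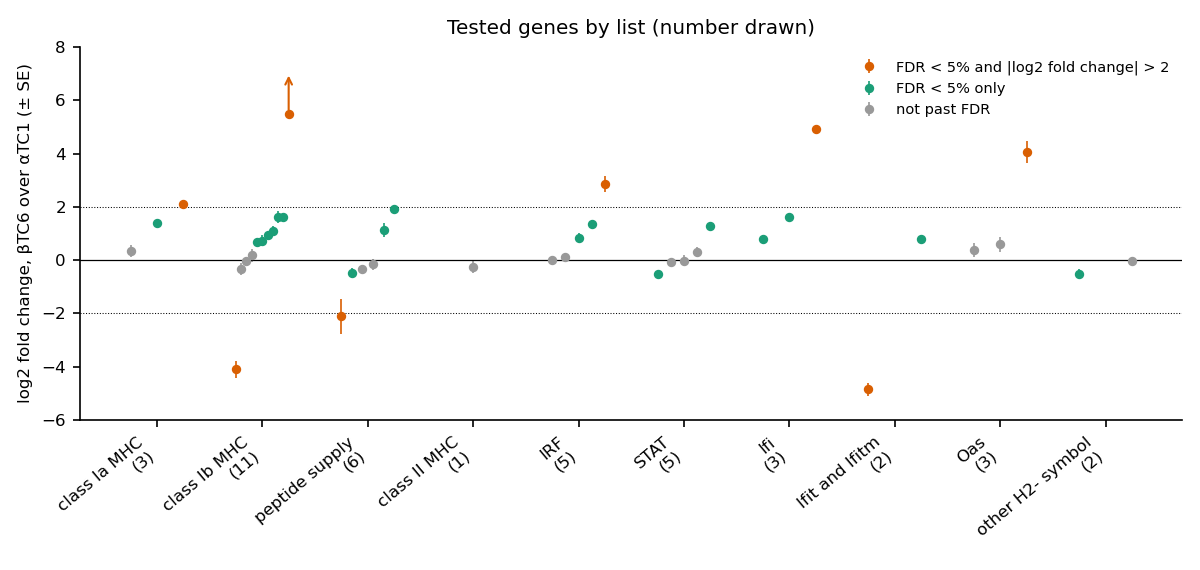
Log2 fold change (βTC6 over αTC1, ± SE) of 41 tested genes, one point per gene, grouped by list, with the number drawn in brackets and dotted lines at -2 and 2. The orange points are 8 called genes, from Ifi30 at 4.90 to Ifitm2 at -4.86, with H2-M10.1, which had no αTC1 count, drawn with an arrow at its lower bound of 5.48, and class Ia, IRF and Ifi genes sit mostly above 0.

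Both classical class I heavy chains were higher in βTC6. H2-K1 (chr17:34132962-34137278, minus strand, mm9) stood at 44.1, 46.6 and 49.1 FPKM in αTC1 and at 176, 198 and 170 in βTC6. All βTC6 libraries lay above all αTC1 libraries, and the fold was 4.30 (log2 fold change 2.104, SE 0.09, adjusted p 1.2e-07). With limma on log2(FPKM + 1) it was 1.94, under the fold threshold. H2-D1 stood at 110, 111 and 112 FPKM in αTC1 and at 264, 278 and 233 in βTC6. It rose 2.60-fold (log2 fold change 1.38, SE 0.10, adjusted p 1.9e-06), past the FDR and under the fold threshold. B2m, the light chain that all class I molecules share, stood at 50.0, 49.9 and 39.8 FPKM in αTC1 and at 43.0, 47.3 and 80.0 in βTC6. Its groups overlapped, and the log2 fold change of 0.34 (SE 0.22) did not pass (adjusted p 0.18). The value rests on βTC6 replicate 3, since leaving out that library gave the lowest of the values with 1 library left out, 0.02. Spike-in RNA made up 0.971% of the counts of that library and 0.436% to 0.723% of the others, and with scaling to the spike-ins the log2 fold change was 0.19 (adjusted p 0.79). Summed over the 24 class I heavy chain genes, expression was 246, 247 and 261 FPKM in αTC1 and 600, 626 and 547 in βTC6. Divided by B2m, this sum was 4.92, 4.96 and 6.56 in αTC1 and 13.97, 13.2 and 6.84 in βTC6, so βTC6 replicate 3 stood next to αTC1. The class I genes are near-identical copies and vary between mouse strains, and the reference is the genome of 1 strain, so the split of reads among single H2 genes is uncertain. The labels do not give the strain of either line, and the part of strain differences in the H2 folds between the lines was not tested.

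The 200 bases upstream of these 3 genes are shown because their RNA and their start-site accessibility are compared below. Capitals mark the core of an ISRE (GAAANNGAA, on either strand) or of a GAS (TTCNNNGAA, the same on both strands). The windows are read 5′ to 3′ towards the annotated gene start from the mm9 genome and hold no annotated exon.
H2-K1 (chr17:34137279-34137478, minus strand): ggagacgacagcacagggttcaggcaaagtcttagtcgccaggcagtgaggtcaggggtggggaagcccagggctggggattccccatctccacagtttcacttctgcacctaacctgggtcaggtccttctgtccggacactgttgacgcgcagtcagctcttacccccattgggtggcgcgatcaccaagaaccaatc
H2-D1 (chr17:35399475-35399674, plus strand): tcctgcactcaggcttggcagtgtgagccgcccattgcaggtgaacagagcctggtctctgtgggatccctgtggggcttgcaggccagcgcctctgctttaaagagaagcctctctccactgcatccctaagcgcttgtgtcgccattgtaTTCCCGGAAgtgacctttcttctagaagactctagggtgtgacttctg
B2m (chr2:121973222-121973421, plus strand): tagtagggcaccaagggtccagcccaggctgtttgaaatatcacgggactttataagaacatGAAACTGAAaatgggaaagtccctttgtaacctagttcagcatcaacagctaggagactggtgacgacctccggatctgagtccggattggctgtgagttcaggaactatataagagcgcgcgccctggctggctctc
B2m held an ISRE core that begins 138 bases before the start, H2-D1 held a GAS core 48 bases before it, and neither set of letters was in the H2-K1 window. The search took these exact letters only. A window without them may still hold another form of an interferon response element, such as the stretch tttcacttc in the H2-K1 window, which the pattern does not match.

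Of the genes that supply and load peptides, tapasin and Psmb8 were higher in βTC6, while the transporter was not. Tapbp stood at 16.99, 17.3 and 19.7 FPKM in αTC1 and at 65.6, 67.6 and 52.7 in βTC6. The lines did not overlap, and the fold was 3.79 (log2 fold change 1.92, SE 0.12, adjusted p 9.8e-07), just under the fold threshold. It was called without αTC1 replicate 3 (log2 fold change 2.03) or without βTC6 replicate 3 (2.02). Psmb8, an interferon-inducible proteasome subunit, stood at 1.12, 2.06 and 1.38 FPKM in αTC1 and at 4.31, 3.05 and 3.61 in βTC6 (log2 fold change 1.13, SE 0.26, adjusted p 0.0035). Tap1 stood at 3.14, 3.01 and 3.85 FPKM in αTC1 and at 3.77, 2.13 and 3.29 in βTC6. Its groups overlapped, and it did not pass (log2 fold change -0.16, adjusted p 0.46). Tap2 stood at 4.58, 5.04 and 5.20 FPKM in αTC1 and at 4.45, 2.50 and 3.44 in βTC6, and the log2 fold change was -0.48 (SE 0.18, adjusted p 0.038). This pass was lost without any 1 of the libraries other than βTC6 replicate 1 (-0.53 to -0.32, adjusted p 0.054 to 0.093). Psmb10, the other inducible subunit on another chromosome, was at 7.72 to 10.3 FPKM in αTC1 and at 6.40 to 7.66 in βTC6, and it did not pass (log2 fold change -0.34, adjusted p 0.072), although it did without αTC1 replicate 3 (-0.45, adjusted p 0.021).

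Psmb9, the third inducible subunit, was called lower in βTC6, and the call did not hold once its 2 overlapping identifiers were added up. The tested identifier stood at 2.70, 2.31 and 3.08 FPKM in αTC1 and at 1.44, 0.15 and 0.31 in βTC6 (log2 fold change -2.12, SE 0.66, adjusted p 0.016), and it entered the test through αTC1 only. Scaled to the spike-ins it stood at -1.91, outside the call. The second identifier, over nearly the same bases of chromosome 17, stood at 0.18, 0.16 and 0.26 in αTC1 and at 0.04, 0.87 and 1.02 in βTC6. The libraries low in the first were high in the second. Summed, Psmb9 was at 2.88, 2.47 and 3.34 FPKM in αTC1 and at 1.48, 1.02 and 1.33 in βTC6. The lines still did not overlap, and the log2 fold change was -1.20 (SE 0.25, adjusted p 0.0017). This sum was added after seeing the data. Leaving out βTC6 replicate 1 moved the value of the first identifier to -4.04, and leaving out replicate 2 or 3 gave -1.62 and -1.73, both outside the call and the second also outside the FDR (adjusted p 0.054).

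Other genes of class I assembly, which the symbol rule does not take, all passed as higher in βTC6: 7 of 7 listed at FDR under 5%, with a median log2 fold change of 1.24 and none past the fold threshold, where 38.7% of all tested genes passed as higher. The chaperones Calr (1.56, SE 0.14, adjusted p 8.1e-06) and Canx (1.46, SE 0.11, adjusted p 3.3e-06) and the proteasome activators Psme1 (1.49, SE 0.11, adjusted p 2.7e-06) and Psme2 (1.24, SE 0.08, adjusted p 1.4e-06) led these log2 fold changes. Calr, Canx and Pdia3 also fold many other secretory proteins. Calr was at 334 to 385 FPKM in αTC1 and at 854 to 1160 in βTC6, and Psme1 was at 22.2 to 28.5 and 62.3 to 67.8. Erap1, which trims peptides, was at 3.8 to 5.51 FPKM in αTC1 and at 6.80 to 10.13 in βTC6 (log2 fold change 0.92, SE 0.17, adjusted p 0.00083).

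**Figure D2:**
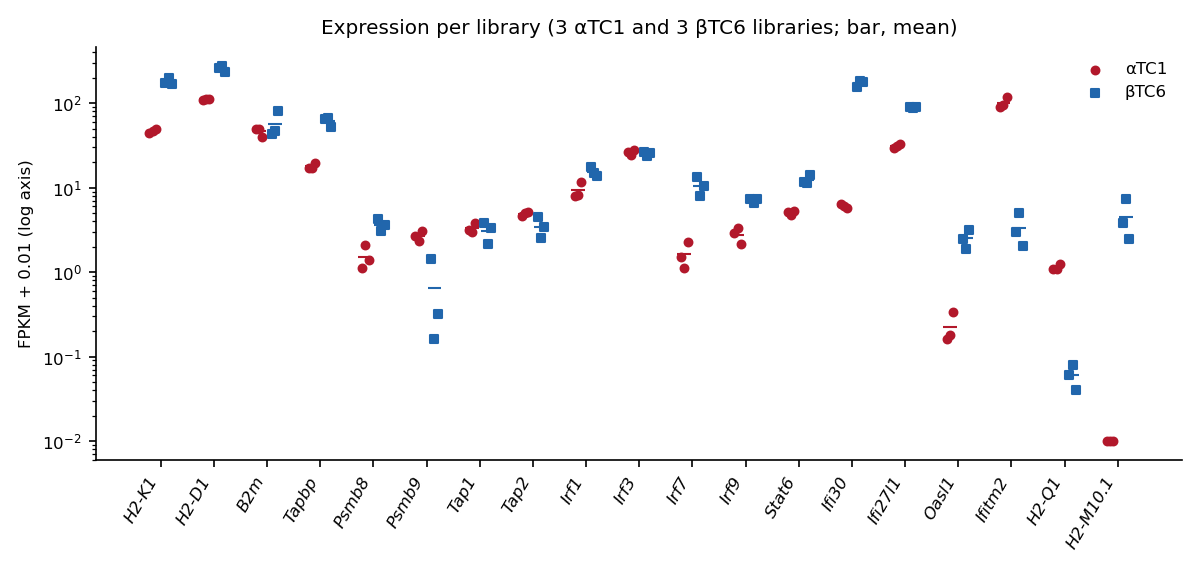
Expression per library as FPKM + 0.01 on a log axis, with 3 αTC1 (red circles) and 3 βTC6 libraries (blue squares) per gene and bars at the mean. H2-K1, Tapbp, Irf7, Ifi30 and Oasl1 are higher in every βTC6 library, Ifitm2 and H2-Q1 are lower in every one, and B2m, Tap1 and Irf3 overlap.

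Among the 22 non-classical (class Ib) genes, 11 were tested, 7 passed as higher in βTC6 and 1 as lower (38.7% and 36.0% of all tested genes), with a median log2 fold change of 0.72. H2-T23, which encodes Qa-1, a ligand of receptors on natural killer cells, stood at 30.9, 31.9 and 38.9 FPKM in αTC1 and at 60.9, 49.6 and 47.4 in βTC6. It rose 1.61-fold without overlap (log2 fold change 0.69, SE 0.12, adjusted p 0.00068). H2-Q4 stood at 23.1, 21.8 and 25.5 FPKM in αTC1 and at 40.1, 37.4 and 48.2 in βTC6 (log2 fold change 0.94, SE 0.11, adjusted p 6.5e-05). H2-Q7, a gene of the Qa-2 antigen, was at 4.11 to 4.43 FPKM in αTC1 and at 12.5 to 15.1 in βTC6, and H2-Q2 was at 2.59 to 3.59 and 6.99 to 11.6. H2-T22, a ligand of gamma-delta T cells, was at 17.3 to 19.6 FPKM in αTC1 and at 14.7 to 18.8 in βTC6 and did not pass (log2 fold change -0.04, adjusted p 0.77).

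This group held 1 call in each direction. H2-M10.1, of the M10 family known from vomeronasal neurons, had 0 counts in every αTC1 library and 122, 241 and 74 counts in βTC6 (3.77, 7.27 and 2.48 FPKM). Against a floor of 3 counts per αTC1 library it was at least 44.7-fold higher in βTC6. H2-Q1 stood at 1.07, 1.07 and 1.24 FPKM in αTC1 and at 0.05, 0.07 and 0.03 in βTC6 (log2 fold change -4.11). H2-M10.1 entered the test through βTC6 only and H2-Q1 through αTC1 only. H2-Ke2 and H2-Ke6 carry H2 symbols from their place in the complex and encode a prefoldin subunit and a steroid dehydrogenase: H2-Ke2 did not pass (log2 fold change -0.05), and H2-Ke6 fell by 0.51 on the log2 scale (SE 0.17, adjusted p 0.022).

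Class II genes were close to absent in both lines. Of 10 genes, 9 stayed at or below 0.28 FPKM in every library. H2-DMa, which helps load class II peptides, was the only one tested, at 1.53, 2.03 and 1.37 FPKM in αTC1 and at 1.28, 1.25 and 2.08 in βTC6. Its groups overlapped, and it did not pass (log2 fold change -0.27, adjusted p 0.32). H2-Aa had 5, 2 and 4 counts in αTC1 and none in βTC6, and H2-Ab1 had 2, 5 and 5 counts and none. Cd74, the invariant chain, stayed at 0.10 FPKM or less. Ciita, the transactivator of class II genes, stayed at 0.05 FPKM or less, and Nlrc5, the transactivator of class I genes, was at 0.16, 0.03 and 0.10 FPKM in αTC1 and at 0.46, 0.39 and 0.80 in βTC6. Nlrc5 was below the filter. With no filter it passed (log2 fold change 2.17, adjusted p 0.00063), at 5 to 17 counts in αTC1 and 50 to 82 in βTC6. The general factors that bind class II promoters moved in both directions: Rfxap (log2 fold change -0.93) and Rfx5 (-0.80) passed the FDR as lower in βTC6 and Rfxank (0.57) as higher.

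Of the 9 interferon regulatory factors, 6 were tested, 4 passed as higher in βTC6 and none as lower (38.7% and 36.0% of all tested genes). Irf7, which amplifies type I interferon production, stood at 1.51, 1.11 and 2.26 FPKM in αTC1 and at 13.4, 7.90 and 10.4 in βTC6 (log2 fold change 2.86, SE 0.29, adjusted p 1.8e-05). Irf9, the DNA-binding partner of Stat proteins, stood at 2.87, 3.28 and 2.16 FPKM in αTC1 and at 7.44, 6.67 and 7.44 in βTC6 (log2 fold change 1.36, SE 0.16, adjusted p 4.2e-05). Irf1, a gene that interferon gamma induces, stood at 7.90, 8.12 and 11.8 FPKM in αTC1 and at 17.7, 15.1 and 13.6 in βTC6, where it rose 1.79-fold (log2 fold change 0.84, SE 0.18, adjusted p 0.0022). In these 3 genes every βTC6 library lay above every αTC1 library. Irf3, the sensor-activated factor present in most cells, was at 24.3 to 28.1 FPKM in αTC1 and at 24.0 to 26.6 in βTC6, and Irf2 was at 10.9 to 11.5 and 10.11 to 12.8. Neither passed (log2 fold changes 0.01 and 0.12), and the sign of Irf3 turned under 5 alternatives. Irf4, Irf5 and Irf8, factors of blood cells, stayed at or below 0.35 FPKM. Exons of Irf7 overlap those of Phrf1 on the opposite strand and those of Irf9 overlap Rnf31, and the reads were counted at settings that do not use strand. Exons of other genes named here overlap a neighbour too, among them Tapbp with Zbtb22, Tap1 with Psmb9, Stat6 with Nab2, Stat3 with Stat5a and Oasl1 with Gm13822.

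The Stat genes moved little, except Stat6. Stat6, the mediator of interleukin-4 signals, stood at 5.21, 4.75 and 5.25 FPKM in αTC1 and at 11.6, 11.2 and 14.1 in βTC6 (log2 fold change 1.26, SE 0.09, adjusted p 2.3e-06). Stat5b fell by 0.54 (SE 0.14, adjusted p 0.0076), from 22.1, 22.5 and 31.9 FPKM in αTC1 to 17.9, 15.2 and 17.8 in βTC6. Stat2 (log2 fold change -0.08), Stat3 (-0.03) and Stat5a (0.30) overlapped between the lines and did not pass. Without αTC1 replicate 3, Stat5a passed (0.50, adjusted p 0.018) and Stat5b stood at -0.34 (adjusted p 0.0048). The RNA of Stat4 stayed at or below 0.10 FPKM. Of 8 tested interferon receptors and kinases outside the symbol rule, 4 passed as higher in βTC6 and 1 as lower (38.7% and 36.0% of all tested genes), with none called. Jak1 stood at 15.0 to 17.6 FPKM in αTC1 and at 33.9 to 35.6 in βTC6 (log2 fold change 1.17, SE 0.08, adjusted p 1.9e-06), and Ifnar1 was at 11.0 to 13.1 and 12.9 to 13.3 and did not pass (log2 fold change 0.14, adjusted p 0.17).

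The interferon-induced families (Ifi, Ifit and Ifitm, Oas, Gbp) held few genes at 1 FPKM or more. All 3 tested Ifi genes passed as higher, 1 of 3 tested Oas genes passed as higher, and of the 2 tested Ifit and Ifitm genes 1 passed in each direction. Of all tested genes, 38.7% passed as higher and 36.0% as lower. Ifi30, a lysosomal thiol reductase that unfolds proteins for presentation, stood at 6.37, 6.08 and 5.69 FPKM in αTC1 and at 157, 186 and 180 in βTC6. It rose 30.0-fold without overlap (log2 fold change 4.90, SE 0.11, adjusted p 3.1e-09). Ifi27l1 stood at 29.6, 31.3 and 32.9 FPKM in αTC1 and at 89.6, 88.7 and 91.2 in βTC6 (log2 fold change 1.61, SE 0.08, adjusted p 1.9e-07), and Ifi35 was at 9.15 to 10.5 and 15.0 to 17.3. Oasl1, an inhibitor of Irf7 translation, stood at 0.15, 0.17 and 0.33 FPKM in αTC1 and at 2.48, 1.87 and 3.17 in βTC6 (log2 fold change 4.06), and it entered the test through βTC6 only. Oas1c, the Oas gene with the highest mean, stood at 1.89, 1.84 and 3.20 FPKM in αTC1 and at 3.16, 2.26 and 3.01 in βTC6. Its groups overlapped, and it did not pass (log2 fold change 0.38, adjusted p 0.20), although it did without αTC1 replicate 3 (0.74, adjusted p 0.0048). Oas1b, which entered the test through βTC6 only, did not pass either (log2 fold change 0.58, adjusted p 0.076). Ifit2 stood at 1.69, 1.85 and 2.16 FPKM in αTC1 and at 2.85, 3.23 and 2.84 in βTC6 (log2 fold change 0.77, SE 0.14, adjusted p 0.00094).

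Ifitm2, a membrane protein that restricts virus entry, ran the other way. It stood at 90.4, 96.7 and 118 FPKM in αTC1 and at 3.01, 5.00 and 2.04 in βTC6. The lines did not overlap, and it fell by 4.86 on the log2 scale (SE 0.26, adjusted p 3.4e-07), which is 29.0-fold. The other Ifitm genes (Ifitm1, Ifitm3, Ifitm5, Ifitm6 and Ifitm7) stayed at or below 0.30 FPKM in every library.

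The other 63 genes were below the filter, at most 2.44 FPKM in any library, and 14 of them had no count. In a fit with no filter, 92 of the 106 genes entered, 21 were called higher in βTC6 and 11 lower, where 12.8% and 5.21% of all 19570 genes were. At the FDR alone 36 were higher and 16 lower, against 30.2% and 27.2% of all genes. Of those below the filter, 15 were called higher and 8 lower, 6 of the 15 among the Oas genes. Of these calls, 3 were on genes with no more than 3 counts in any library (Ifi27l2b higher, Gbp9 and H2-DMb1 lower). Oasl2, an oligoadenylate synthetase-like gene, had 3, 0 and 1 counts in αTC1 and 120, 47 and 97 in βTC6 (0.84 to 2.28 FPKM). Oas1a had 1, 8 and 6 counts in αTC1 and 50, 37 and 35 in βTC6. Gbp7, of the guanylate-binding proteins that attack pathogen vacuoles, had 6, 9 and 10 counts in αTC1 and 128, 89 and 76 in βTC6 (0.55 to 0.88 FPKM), and Gbp3 had 1, 3 and 0 counts against 19, 11 and 15. Ifit3 had 8, 2 and 6 counts against 29, 34 and 31. Ifi203, a nuclear interferon-inducible protein, ran the other way with 27, 32 and 34 counts in αTC1 and 3, 5 and 4 in βTC6. The groups did not overlap in any of these 6 genes, which were picked from those called in this fit. Among all tested genes 77.7% did not overlap. Copies within the Oas1, Gbp and Ifi200 families share sequence, and their counts are uncertain for the same reason as those of the H2 genes.

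Sensors and effectors outside the symbol rule were also counted. Of 6 tested nucleic acid sensors, 3 passed as higher in βTC6 and 3 as lower (38.7% and 36.0% of all tested genes). E330016A19Rik, which encodes the DNA sensor cGAS, had 1, 1 and 2 counts in αTC1 and 222, 218 and 197 in βTC6, the line through which it entered the test. Trex1, the exonuclease that removes the DNA that cGAS senses, was at 8.57 to 10.7 FPKM in αTC1 and at 0.82 to 1.21 in βTC6, and the log2 fold change was -3.18. Trex1 entered the test through αTC1 only, as did Ifih1. The RNA sensors Ddx58 (log2 fold change 1.43, adjusted p 0.00032) and Ifih1 (-1.62) passed in opposite directions. Of 20 listed effectors, 11 were tested, 5 passed as higher and 2 as lower, beside the same shares of all tested genes. Parp9 and Dtx3l, among those that passed as higher, entered the test through βTC6 only. Rtp4 (0.00 to 0.06 FPKM in αTC1, 1.42 to 2.34 in βTC6) and Cmpk2 (1.13 to 1.34 and 5.41 to 6.19) were called higher, of which Rtp4 entered the test through βTC6 only, Herc6 (log2 fold change -1.36) and Adar (-0.77) passed as lower, and Isg15, Mx1, Mx2 and Rsad2 stayed under 1 FPKM in every library. With no filter, 7 of the 9 effectors below it passed the FDR as higher in βTC6 and 0 as lower (30.2% and 27.2% of all genes in that fit), among them Parp14 (4, 9 and 12 counts in αTC1, 158, 124 and 100 in βTC6), Rsad2 (16, 11 and 20 against 65, 64 and 24) and Mx1 (1, 0 and 0 against 12, 17 and 29).

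Accessibility near these genes was lower in βTC6 more often than higher. Of the 132 peaks, 29 were higher and 58 lower in βTC6 at FDR under 5%, where 39.9% of all peaks were higher and 38.1% lower. With the fold threshold, 3 were called higher and 6 lower, against 12.9% and 5.38% of all peaks. The median log2 fold change was -0.26, and 0.00 over all peaks. By position, the 61 peaks within 2 kb of a start site had a median of -0.09 (all such peaks, -0.31), and 18 of them passed the FDR as higher (29.5%) and 24 as lower (39.3%), where 23.4% and 52.3% of all such peaks did. The 71 farther peaks had a median of -0.41 (all such peaks, 0.18). The split of the calls depended on the method: it was 2 higher and 8 lower with quantile normalization (8.69% and 7.88% of all peaks), and 10 higher and 9 lower with edgeR on the recovered reads (21.2% and 8.82%). STAT genes had 24 peaks, of which 17 passed as lower and 2 as higher, and all 5 peptide supply peaks that passed, of 6, were lower. Gbp genes had 9 peaks, 5 of them past the FDR as higher and none as lower. The peak centres lay in exons for 34 peaks, in introns for 43 and between genes for 55.

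**Figure D3:**
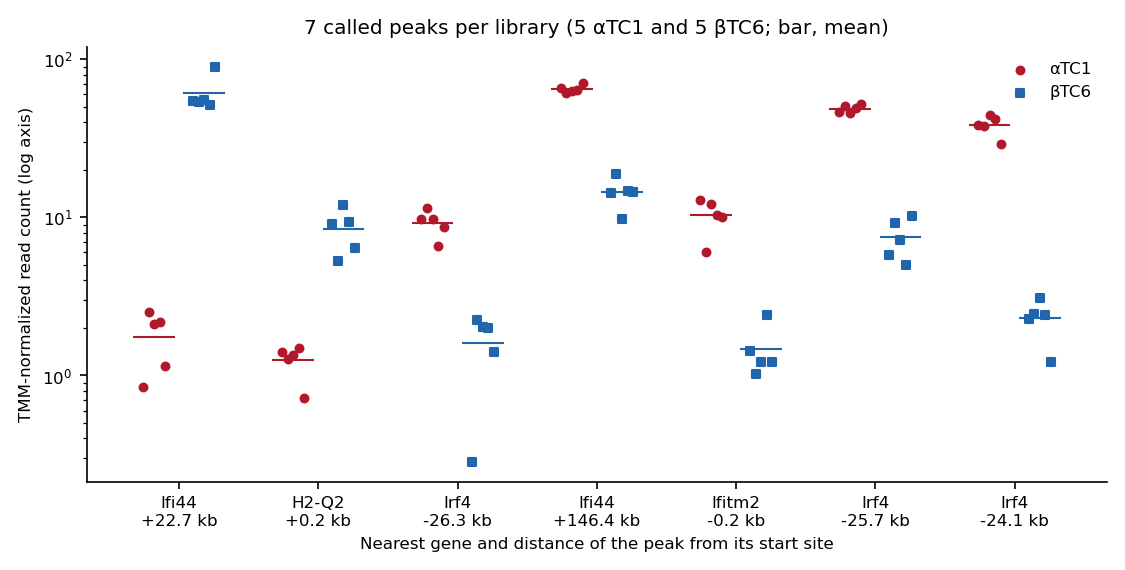
TMM-normalized read count (log axis) of 7 called peaks in 5 αTC1 (red circles) and 5 βTC6 libraries (blue squares), bars at the mean, ordered from highest in βTC6 to highest in αTC1, with the nearest gene and the distance from its start site. In each of the 7 peaks the libraries of the lines do not overlap.

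The peak highest in βTC6 lay between genes at chr3:151389837-151390674, 22.7 kb from Ifi44, an interferon-induced gene. It held 0.84 to 2.53 normalized reads in αTC1 (median 2.104) and 54.4, 53.5, 55.0, 51.5 and 89.7 in βTC6 (log2 fold change 4.49, SE 0.19, adjusted p 1.5e-13). Another peak at chr3:151265828-151267222, 146 kb from the same gene, ran the other way, with 61.4 to 70.5 normalized reads in αTC1 and 9.73 to 18.9 in βTC6 (log2 fold change -2.13, SE 0.13, adjusted p 1.2e-11). Its call was lost with a pseudocount of 5 (-1.87) and with quantile normalization (-1.95). Ifi44 itself had no RNA-seq count in any library but βTC6 replicate 3, where it had 1. Nearest gene is a matter of distance and does not show which gene a peak acts on.

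Upstream of Irf4, a factor of lymphocytes, 3 peaks 24.1 to 26.3 kb away were lower in βTC6. The strongest, at chr13:30816621-30817382, held 38.2, 37.9, 44.3, 41.8 and 29.3 normalized reads in αTC1 and 2.27, 2.46, 3.11, 2.43 and 1.22 in βTC6 (log2 fold change -3.59, SE 0.17, adjusted p 7.1e-13). The next, at chr13:30814976-30815868, held 45.8 to 52.1 in αTC1 and 4.99 to 10.2 in βTC6 (log2 fold change -2.59). The third, at chr13:30814646-30814953, stood at -2.04 and left the call with a pseudocount of 5 (-1.11), in replicates 4 and 5 alone (-1.67), and without αTC1 replicate 2 (-1.96) or βTC6 replicate 1 (-1.80). The peak at the Irf4 start site did not pass (4.90 to 9.02 normalized reads in αTC1, 5.14 to 8.83 in βTC6, log2 fold change 0.20), and Irf4 RNA was at 0.08 FPKM or less in both lines.

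Called peaks lay at the start sites of Ifitm2 and H2-Q2, and in both the RNA differed in the same direction. With a pseudocount of 5 neither was called (log2 fold change -1.23 for Ifitm2 and 1.08 for H2-Q2). The Ifitm2 peak (chr7:148141780-148142317) held 12.9, 6.04, 12.2, 10.4 and 10.11 in αTC1 and 1.42, 1.03, 1.22, 2.43 and 1.22 in βTC6 (log2 fold change -2.19, SE 0.23, adjusted p 4.6e-08). The H2-Q2 peak (chr17:35479021-35479949) held 0.72 to 1.501 in αTC1, from 5 to 11 reads per library, and 5.33 to 12.03 in βTC6. Its log2 fold change was 2.04 (SE 0.23, adjusted p 1.0e-07), and the call was lost without αTC1 replicate 5 (1.94), without βTC6 replicate 3 (1.91), without βTC6 replicate 4 (1.99) or with quantile normalization (1.59). The Ifi30 peak (chr8:73290404-73290906) held 1.954 to 5.05 in αTC1 and 12.3 to 16.8 in βTC6, under the fold threshold (log2 fold change 1.84, SE 0.20, adjusted p 8.9e-08), and it was called with edgeR on the recovered reads (2.06).

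The upstream windows of Ifi30 and Ifitm2 are printed because these genes had high RNA folds and a start-site peak that moved along with them.
Ifi30 (chr8:73291051-73291250, minus strand): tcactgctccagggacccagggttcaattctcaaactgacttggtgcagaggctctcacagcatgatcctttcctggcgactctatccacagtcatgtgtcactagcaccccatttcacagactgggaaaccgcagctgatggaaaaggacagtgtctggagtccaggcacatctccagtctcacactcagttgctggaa
Ifitm2 (chr7:148141883-148142082, minus strand): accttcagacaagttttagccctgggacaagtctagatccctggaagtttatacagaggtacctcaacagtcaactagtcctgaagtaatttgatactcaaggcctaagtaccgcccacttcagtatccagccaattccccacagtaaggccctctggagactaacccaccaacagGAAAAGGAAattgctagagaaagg
Ifitm2 held an ISRE core 24 bases before its start, and neither set of letters was in the Ifi30 window.

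RNA and start-site accessibility were then set side by side for all tested genes with a peak. Of the 43 tested genes, 39 had a peak centre within 2 kb of their start (37 peaks, since Tap1 and Psmb9 share 1, as do Oas1b and Oas1c). Among the 19 of these with RNA higher in βTC6 at FDR under 5%, the peak was higher in 8, lower in 4 and did not pass in 7. Over all tested genes the same counts were 1484, 1547 and 1225 of 4256. Where the RNA passed, the peak passed in the same direction for 14 of 25 genes (56.0%), close to the 57.8% over all tested genes. Of the 6 with lower RNA, all 6 had a lower peak, and so did 3270 of 3968 over all genes. Across genes the log2 fold changes of RNA and peak had a Pearson r of 0.68 and a Spearman rho of 0.58 (n = 39), and of 0.73 and 0.57 over all 11073 tested genes with a start-site peak. Genes are not independent replicates, and the points share libraries, so no test is given.

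The Irf7 peak stood at 15.3 to 21.99 normalized reads in αTC1 and at 18.05 to 21.5 in βTC6, beside an RNA fold of 7.25 (peak log2 fold change 0.02, SE 0.12, adjusted p 0.87). The H2-K1 peak stood at 19.2 to 27.2 in αTC1 and at 17.1 to 23.3 in βTC6 (log2 fold change -0.14, SE 0.13, adjusted p 0.30). The H2-D1 peak was lower in βTC6, at 46.3 to 55.5 in αTC1 and 28.6 to 32.7 in βTC6 (log2 fold change -0.73, SE 0.09, adjusted p 2.6e-07), while its RNA was higher. The same opposition held for Oasl1, whose peak stood at 73.3 to 99.5 in αTC1 and at 19.8 to 43.7 in βTC6 (log2 fold change -1.21, SE 0.16, adjusted p 7.4e-07), and for Psmb8 (-0.56, adjusted p 0.0075). Over the alternative fits the Psmb8 peak kept its sign (-0.76 to -0.25), but its adjusted p reached 0.52, outside the FDR. Another Oasl1 peak, in an intron 3.14 kb from the start, was higher in βTC6, at 0.58 to 2.94 and 4.31 to 6.57 (log2 fold change 1.57, SE 0.24, adjusted p 6.7e-06). The Tapbp peak, which the table names after the neighbouring Zbtb22, passed as lower (-0.35, adjusted p 0.0041), which was lost with quantile normalization (-0.02, adjusted p 0.88). Irf9 moved together in both assays, with a peak at 6.01 to 8.71 in αTC1 and 15.8 to 21.8 in βTC6 (log2 fold change 1.28, SE 0.15, adjusted p 1.9e-07).

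**Figure D4:**
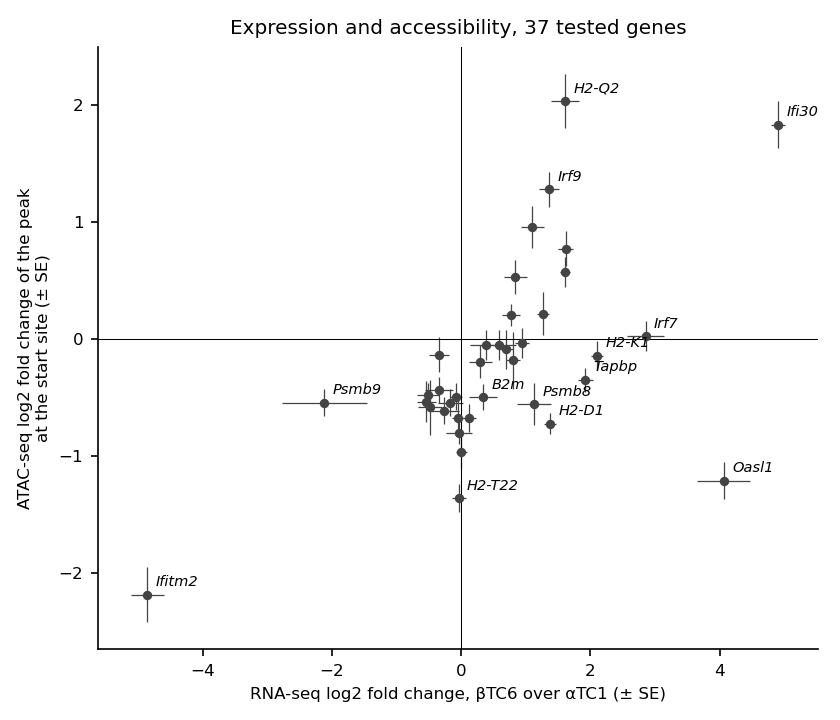
RNA-seq log2 fold change (x axis, ± SE) against the ATAC-seq log2 fold change of the peak at the start site (y axis, ± SE), both βTC6 over αTC1, for 37 tested genes. Ifi30 sits at the upper right and Ifitm2 at the lower left, while Irf7 and H2-K1 lie near 0 on the y axis and Oasl1 lies at -1.21.

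The ISRE core was in the 200 bases upstream of 20 of the 106 genes (18.9%) and of 1453 of all 24372 genes (5.96%). The GAS core was upstream of 10 (9.43%) and of 1343 (5.51%). A match is a description of letters and not a bound site, and other forms of either element were not searched. Oas (Oas1a, Oas1b, Oas1c, Oas1g, Oas2, Oas3), Gbp (Gbp1, Gbp3, Gbp5, Gbp7) and Ifit genes (Ifit1, Ifit3) made up most of the genes with an ISRE core, and most of them were below 1 FPKM. Of the 9 called genes, only Ifitm2 held it. Ifit3 and Gbp7 are printed as examples with 3 cores each. Ifit3 held ISRE cores 157, 123 and 104 bases before its start, and Gbp7 held GAS cores 108 and 89 bases and an ISRE core 54 bases before its start.
Ifit3 (chr19:34657821-34658020, plus strand): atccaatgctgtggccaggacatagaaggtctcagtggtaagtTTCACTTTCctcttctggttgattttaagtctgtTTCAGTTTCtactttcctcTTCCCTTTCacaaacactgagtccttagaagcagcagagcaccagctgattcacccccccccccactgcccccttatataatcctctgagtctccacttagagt
Gbp7 (chr3:142193102-142193301, plus strand): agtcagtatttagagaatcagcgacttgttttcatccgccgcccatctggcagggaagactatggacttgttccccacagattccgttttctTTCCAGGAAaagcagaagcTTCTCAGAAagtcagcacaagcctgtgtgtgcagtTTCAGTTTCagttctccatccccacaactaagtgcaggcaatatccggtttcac
The peak over the Gbp7 start was higher in βTC6, at 12.6 to 19.5 normalized reads in αTC1 and 24.5 to 34.7 in βTC6 (log2 fold change 0.85, SE 0.13, adjusted p 6.9e-06), as was that at Gbp3, with 24.3 to 27.8 and 28.9 to 53.2 (0.46, SE 0.13, adjusted p 0.0024).

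In the mixtures, 5 of the 6 called peaks with the largest statistics are described, and they followed the share of αTC1 cells. The peaks were chosen for their difference between the pure lines, and the mixtures blend cells of those lines. A trend with the share was thus largely fixed in advance, and the p-values below add no independent support for the line difference. The Ifi44 peak at 22.7 kb fell from 79.2 normalized reads in the mixture with 10% αTC1 to 36.4 at 50% and 9.14 at 90% (Pearson r -0.98, Spearman rho -0.98, n = 9 mixtures, exact permutation test, two-sided, p 1.7e-05 and 5.0e-05, adjusted p 5.0e-05 and 9.9e-05 over the 6 peaks). The H2-Q2 peak went from 7.67 to 4.53 and 0.61 at the same shares. The Ifi44 peak at 146 kb rose from 20.7 to 40.0 and 63.6 without a step down (r 0.99, rho 1, exact permutation p 5.5e-06 for both, the smallest that these permutations can give, adjusted p 3.3e-05). The Irf4 peaks at 24.1 and 25.7 kb rose from 5.51 to 18.7 and 27.2 and from 12.6 to 28.1 and 44.3. For the other 3 peaks the absolute r was 0.94 to 0.95 and the adjusted exact permutation p for r was at most 0.00037. Without the mixtures at 10% and 90%, r kept its sign in all 5 peaks, with absolute values of 0.87 to 0.98.

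**Figure D5:**
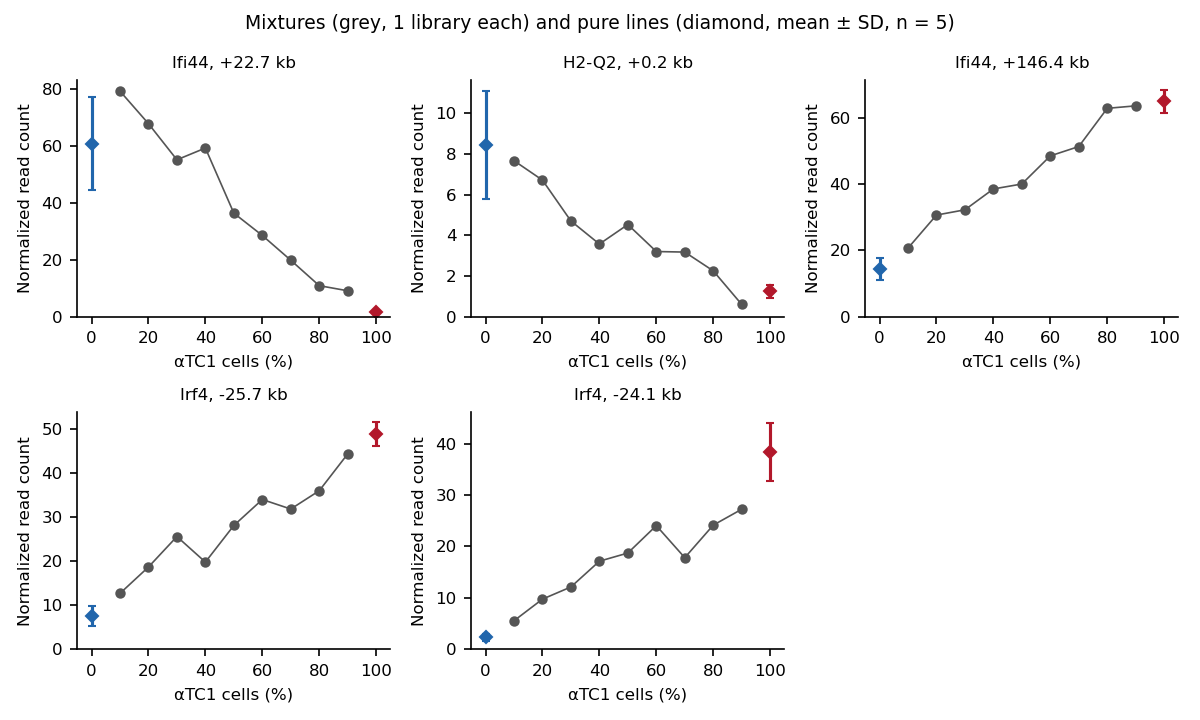
TMM-normalized read count of 5 called peaks (y axis, linear from 0) against the percentage of αTC1 cells (x axis), with grey points for the 9 mixtures (1 library each) and diamonds for the mean ± SD of 5 pure βTC6 (left) and 5 pure αTC1 libraries (right). The first 2 peaks (Ifi44 at 22.7 kb and H2-Q2) fall and the other 3 rise with the share of αTC1 cells.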

How the data were processed

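ATAC-seq (19 libraries) and RNA-seq (6 libraries) of αTC1, βTC6 and their mixtures were taken as deposited, grouped by their labels. The ATAC-seq values are a signal: TMM-normalized read counts per consensus peak, made by the authors with Trimmomatic 0.32, BWA 0.7.9a (mm9), Picard 1.95, MACS2 2.1.0 and DiffBind 2.2.5, from which whole reads were recovered for 100% of values (within 0.01 of a whole number). The deposited expected counts were estimated by the authors with Bowtie2 and RSEM 1.2.12 and rounded here, and the FPKM values were made by the authors in the same run. Classes of peaks from the authors' own comparison were not used, and 0 columns matched no library.

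Genes were tested with edgeR 4.0.16 (quasi-likelihood, TMM) where FPKM was at least 1 in all libraries of either line. Peaks were tested with limma 3.58.1 (trend) on log2(value + 1). Called features passed an FDR (Benjamini-Hochberg) of 5% with a log2 fold change beyond 2 in size. DESeq2 1.42.0 was an alternative. All fits ran over all genes or peaks and were tested on simulated data. Where nothing says that replicates were separate cultures, p-values measure the spread between these libraries, which may be technical. Positions, upstream sequence and gene starts (the 5′ end of the annotated gene) are from GENCODE vM1 on mm9, and a start-site peak has its centre within 2 kb of the start.

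The genes, lists and tests were chosen with earlier results of these data known. Genes named throughout are the classical class I, peptide supply, class II, regulator, IRF and Stat genes, the called genes and the 2 highest genes of each other family; further genes were named after their values were seen. The peaks are the called ones and those at the starts of named genes. Results of 2 genes are not reported here, and the genes stay in the counts and fits.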

Additional observations from a re-analysis of the deposited data

Results flagged for a closer look

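In 37 described peaks, each group of 5 libraries was searched for a library set apart from the other 4 by Dixon's gap criterion, which chance alone meets in about 1 of 20 groups. It was met in 6 of 74 groups. The Ifi44 peak at 22.7 kb held 89.7 normalized reads in βTC6 replicate 5, where the other βTC6 libraries held 51.5 to 55.0. In the same library the Gbp3 start-site peak held 53.2 and the others held 28.9 to 35.3. βTC6 replicate 4 was highest at the Irf7 start, with 21.5 against 18.05 to 18.6, and at the Ifitm2 start, with 2.43 against 1.03 to 1.42. In αTC1, replicate 3 was highest at the Irf4 start (9.02 against 4.90 to 5.92) and replicate 2 was highest at the Irf9 start (8.71 against 6.01 to 6.69). βTC6 replicate 5 was the deepest ATAC-seq library. Without it the Ifi44 peak was still called. The cause of these gaps was not tested.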

How the results depend on the processing

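Of the results recomputed under other settings, 133 counts and mixture relations stayed within 1.5 times the reported count, or kept direction and side of the threshold, and 15 did not. The same held for 399 values of single genes (7 changed sign, 8 lost and 2 gained the call) and 728 of single peaks (16, 12 and 1). With no filter on FPKM, 21 genes were called higher in βTC6 and 11 lower, and 36 and 16 passed the FDR alone, because 92 genes of this set entered in place of 43. Scaled to ERCC spike-ins, 13 passed the FDR as higher and 3 as lower (17.5% and 11.8% of all tested genes), and Psmb9 left the call (-1.91). Some passes described above did not hold under every alternative: the highest adjusted p was 0.10 for H2-Q4, 0.21 for H2-T23, 0.13 for Irf1, 0.077 for Psmb8, 0.26 for Ifit2 and 0.33 for Stat5b. Limma on log2(FPKM + 1) called 4 genes higher and 1 lower, where it called 5.76% and 2.27% of all tested genes. H2-K1 (1.94), Oasl1 (1.51), H2-Q1 (-1.02) and Psmb9 (-1.25) left the call. Of the peaks, 3 were called lower with a pseudocount of 5 (1.26% of all peaks), and 10 were called higher with edgeR on recovered reads (21.2%). Among the 85 with a mean of at least 5, 17 passed the FDR as higher (35.1% of all such peaks). In replicates 4 and 5 alone, with fewer libraries, 37 passed it as lower (27.6% of all peaks). Within 2 kb of a start site, where 61 peaks lie, 18 passed the FDR as higher and 24 as lower (23.4% and 52.3% of all such peaks), and 1 was called lower. The cause of the change under the spike-in scaling, limma and edgeR was not tested.

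With 1 library left out, 6 to 7 genes were called higher and 2 to 3 lower, and 21 to 23 passed the FDR as higher and 4 to 7 as lower, with 4 in the fit without βTC6 replicate 2. Of the peaks, 2 to 4 were called higher and 5 to 6 lower, where 12.5% to 13.3% and 5.09% to 5.71% of all peaks were. The sum over the identifiers of Psmb9 was chosen after seeing the data and ended its call (-1.20). Every difference that changed sign had failed the FDR both as reported and under the alternative. Among genes, Irf3 turned to -0.0096 (spike-ins), -0.048 (no filter) and -0.044 (limma), and over the fits with 1 library left out it ran from -0.038 to 0.036. Stat3 ran from -0.22 to 0.19 in those fits. Among peaks at start sites, quantile normalization turned Oas1c to 0.031, H2-Q4 to 0.12, Stat6 to -0.053 and Irf4 to -0.12. Replicates 4 and 5 alone turned Oas1c to 0.055, H2-Q4 to 0.27, Psmb10 to 0.059, Stat6 to -0.067 and H2-T23 to 0.053, and replicates 1 to 3 alone turned Irf7 to -0.080. With 1 library left out, H2-Q4 ran from -0.10 to 0.066, Irf7 from -0.042 to 0.082 and H2-T23 from -0.23 to 0.021.

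With the replicate number as a block, 6 genes were called higher and 3 lower, and 3 peaks higher and 6 lower, the counts of the fit without it. The numbers mark no shared culture in the labels, and same-numbered libraries of the lines did not deviate together (correlation -0.04 to 0.02 in RNA-seq and 0.00 to 0.07 in ATAC-seq), so they share only a number. Values were low for the 63 genes below the filter and for peaks such as that of H2-Q2, with 5 to 11 reads per αTC1 library. The part of sequencing depth in this was not tested.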

Other observations

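Between the pure lines, the mixtures can be set beside a linear mix of the mean normalized read counts of the lines. The H2-Q2 peak lay below this line in 9 of 9 mixtures, with a median ratio of 0.840 (0.310 to 0.992). The Ifi44 peak at 146 kb lay above it in 9 of 9 (median ratio 1.08, 1.01 to 1.25) and the Ifi44 peak at 22.7 kb in 8 of 9 (1.19, 0.806 to 1.59). The Irf4 peaks lay on both sides, above it in 3 of 9 (median ratio 0.923) and in 4 of 9 (0.998). The mixtures have 1 library each and share a processing group with replicates 4 and 5, while the line uses the means of all 5 libraries of each pure line. The βTC6 mean of the Ifi44 peak at 22.7 kb includes replicate 5, at 89.7 against 51.5 to 55.0 in the others. The αTC1 end of the H2-Q2 line rests on few reads. These ratios were not tested, and an offset from the line cannot be told apart from such differences.

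Further peaks passed the FDR as higher in βTC6 under the fold threshold. The peak at the Ifi44l start, whose centre lies in an exon of H28, held 3.76 to 5.90 normalized reads in αTC1 and 11.2 to 22.3 in βTC6 (log2 fold change 1.33, SE 0.19, adjusted p 2.6e-06 by limma). A peak in an intron of Stat4, whose RNA stayed at or below 0.10 FPKM in both lines, held 20.6 to 31.5 in αTC1 and 44.3 to 74.8 in βTC6 (log2 fold change 1.09, SE 0.13, adjusted p 2.9e-07 by limma). Upstream of Ifit2, 6.00 kb from its start, a peak held 0.84 to 1.73 in αTC1 and 5.56 to 8.83 in βTC6 (log2 fold change 1.75, SE 0.21, adjusted p 2.0e-07 by limma), and the RNA rose 1.71-fold. These peaks were chosen after their values were seen.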
